A study of Mus musculus with 24 samples.

Results

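The expression of 10 genes that mark the stem cells at the base of the intestinal crypt, or that respond to Wnt signalling there, was followed in 12 ileal RNA sequencing libraries. They were taken by symbol from the ileal expression table, in which all 10 were found among 40481 genes: the stem cell genes Lgr5, Olfm4, Ascl2 and Smoc2, the position and adhesion receptors Ephb2 and Cd44, the ligand Wnt3, and the feedback inhibitors Axin2, Rnf43 and Znrf3. The mice were C57BL/6 and every group had undergone resection of 75% of the intestine, so no group shows the crypt without surgery. All of them carried floxed alleles of Abca1, a membrane transporter that passes cellular cholesterol to apolipoprotein A-I. Floxed mice (Abca1 fl/fl) kept the gene, and Villin-Cre mice (Abca1 fl/fl X Villin-Cre) carried in addition a Cre recombinase under the Villin promoter, which is active in the epithelium of the intestine but not in its muscle, stroma or immune cells. Each genotype was given vehicle (0.5% carboxymethyl cellulose) or the compound GW3965, which activates liver X receptors, by mouth at 1 mg/kg/day on 2 days a week over the final 5 of 10 weeks after surgery. The 4 ileal groups held 3 libraries each. Age and sex were not among the labels, and the labels did not tie a library to an animal.

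Wnt ligands bind Frizzled receptors and LRP co-receptors, which halts the destruction of beta-catenin and lets it switch on target genes with TCF/LEF factors. R-spondins, made by cells around the crypt, bind LGR receptors such as LGR5 and draw the ubiquitin ligases RNF43 and ZNRF3 away from the Frizzled receptors they would otherwise remove. RNF43, ZNRF3 and AXIN2 are at the same time targets of the pathway and brakes on it. Paneth cells supply WNT3 to the crypt base in the small intestine, where LGR5-positive stem cells divide and feed the transit-amplifying cells above them. OLFM4 is a secreted glycoprotein of those stem cells whose gene also answers to Notch signalling.

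All levels are CPM, which is reads of a gene per M reads assigned to genes in a library, with depths of 16.96 to 24.2 M assigned reads per ileal library. Fold changes are differences of log2(CPM + 0.5) with their SE, a scale on which changes of scarce genes come out too small, and a gene was called where the adjusted p of limma over 18656 tested genes was below 0.05. All 10 members passed the filter on low values (0.5 CPM in at least 3 libraries). The libraries of a group lay closer to one another than to any library of another group. Replicate 3 of the floxed GW3965 group stood apart from the rest of its group: its variance against them was 7.20 and 7.51 times the Poisson variance. That ratio was 2.61 to 3.96 in the 10 remaining pairs within groups and at least 9.43 between groups. Whether close libraries are separate animals cannot be told from the files or labels, so the p-values reflect only how far libraries of a group lie apart, and that spread may be technical. In whole tissue, fewer cells of a type and less RNA per cell cannot be told apart. Abca1, the deleted gene, stood at 57.2 ± 2.83 CPM in floxed vehicle, 372 ± 105 in floxed GW3965, 28.3 ± 2.47 in Villin-Cre vehicle and 53.8 ± 0.159 in Villin-Cre GW3965 libraries (SD, n = 3). It was thus lower in Villin-Cre libraries under either treatment, and its remaining reads include those of cells without Cre and of exons outside the deleted part.

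The stretches of 250 bases before the start sites of 3 members are shown because these genes span the range of behaviour found below: Olfm4 fell furthest, Ephb2 moved most like it, and Axin2 was not called in any comparison in the fit of all 12 libraries. They are RefSeq sequences of GRCm38.p6, 5′ to 3′ on the strand of the gene, with a match to GGGAAATCC, a form of the NF-kappaB site, in capitals.
Olfm4, chr14:80000052-80000301, plus strand: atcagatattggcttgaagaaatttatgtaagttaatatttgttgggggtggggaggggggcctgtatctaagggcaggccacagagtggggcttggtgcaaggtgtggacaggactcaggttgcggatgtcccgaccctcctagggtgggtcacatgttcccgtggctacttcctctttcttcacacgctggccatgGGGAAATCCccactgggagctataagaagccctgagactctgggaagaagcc
Ephb2, chr4:136836013-136836262, minus strand: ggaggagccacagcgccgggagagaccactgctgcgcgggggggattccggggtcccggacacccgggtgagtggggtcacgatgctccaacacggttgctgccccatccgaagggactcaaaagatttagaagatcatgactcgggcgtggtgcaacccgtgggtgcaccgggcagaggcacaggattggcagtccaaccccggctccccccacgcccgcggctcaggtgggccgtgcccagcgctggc
Axin2, chr11:108920099-108920348, plus strand: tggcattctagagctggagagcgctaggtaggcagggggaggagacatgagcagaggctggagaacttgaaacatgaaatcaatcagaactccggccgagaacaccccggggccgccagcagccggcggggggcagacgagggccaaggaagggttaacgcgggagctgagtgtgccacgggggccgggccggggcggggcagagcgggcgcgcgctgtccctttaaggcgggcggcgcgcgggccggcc
The RefSeq start of Olfm4 lies inside the longer GENCODE M21 gene given below. The Olfm4 stretch was poor in CpG, with 4 CpG dinucleotides, against 20 before Ephb2 and 24 before Axin2 and a median of 6 over 32851 promoters of the mouse. Windows of 300 bases, reaching 50 bases into the transcript, were found for 7 members (Rnf43 had 2 of them), and none was found for Lgr5, Smoc2 and Znrf3. Both strands were searched for the TCF/LEF cores CTTTGA and CTTTGT and for GTGGGAA, a core of the Notch factor RBPJ. The Wnt3 window held CTTTGT 18 bases after the start, and no other member window held either TCF/LEF core, which 31.2% of all promoters had at least once. GTGGGAA was in none of the member windows and in 6.38% of all promoters. GGGAAATCC, a motif looked for only after the sequence had been seen, began 52 bases before the Olfm4 start and was in 0.304% of all promoters. These matches describe letters only and say nothing about which factor binds.

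Per kilobase of merged exon, Olfm4 and Axin2 were the members with the highest level in floxed vehicle libraries, at 19.1 ± 0.666 and 18.7 ± 0.900 CPM per kb (SD, n = 3), which did not differ beyond their spread. Smoc2 (5.78 ± 0.360), Cd44 (5.76 ± 0.404), Rnf43 (4.93 ± 0.253) and Ephb2 (4.40 ± 0.392) formed a middle tier, in which Smoc2 overlapped Cd44 and Rnf43 overlapped Ephb2. Znrf3 stood at 2.79 ± 0.353 CPM per kb. Lgr5 (1.07 ± 0.156), Ascl2 (1.03 ± 0.454) and Wnt3 (0.691 ± 0.0945) were lowest, and Ascl2 overlapped both its neighbours. In Villin-Cre GW3965 libraries the order was different: Axin2 still stood at 18.7 ± 0.341 CPM per kb and Rnf43 came next at 7.65 ± 0.244, whereas Olfm4 stood at 0.604 ± 0.170, in overlap with Lgr5 at 0.718 ± 0.0272.

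**Figure D1:**
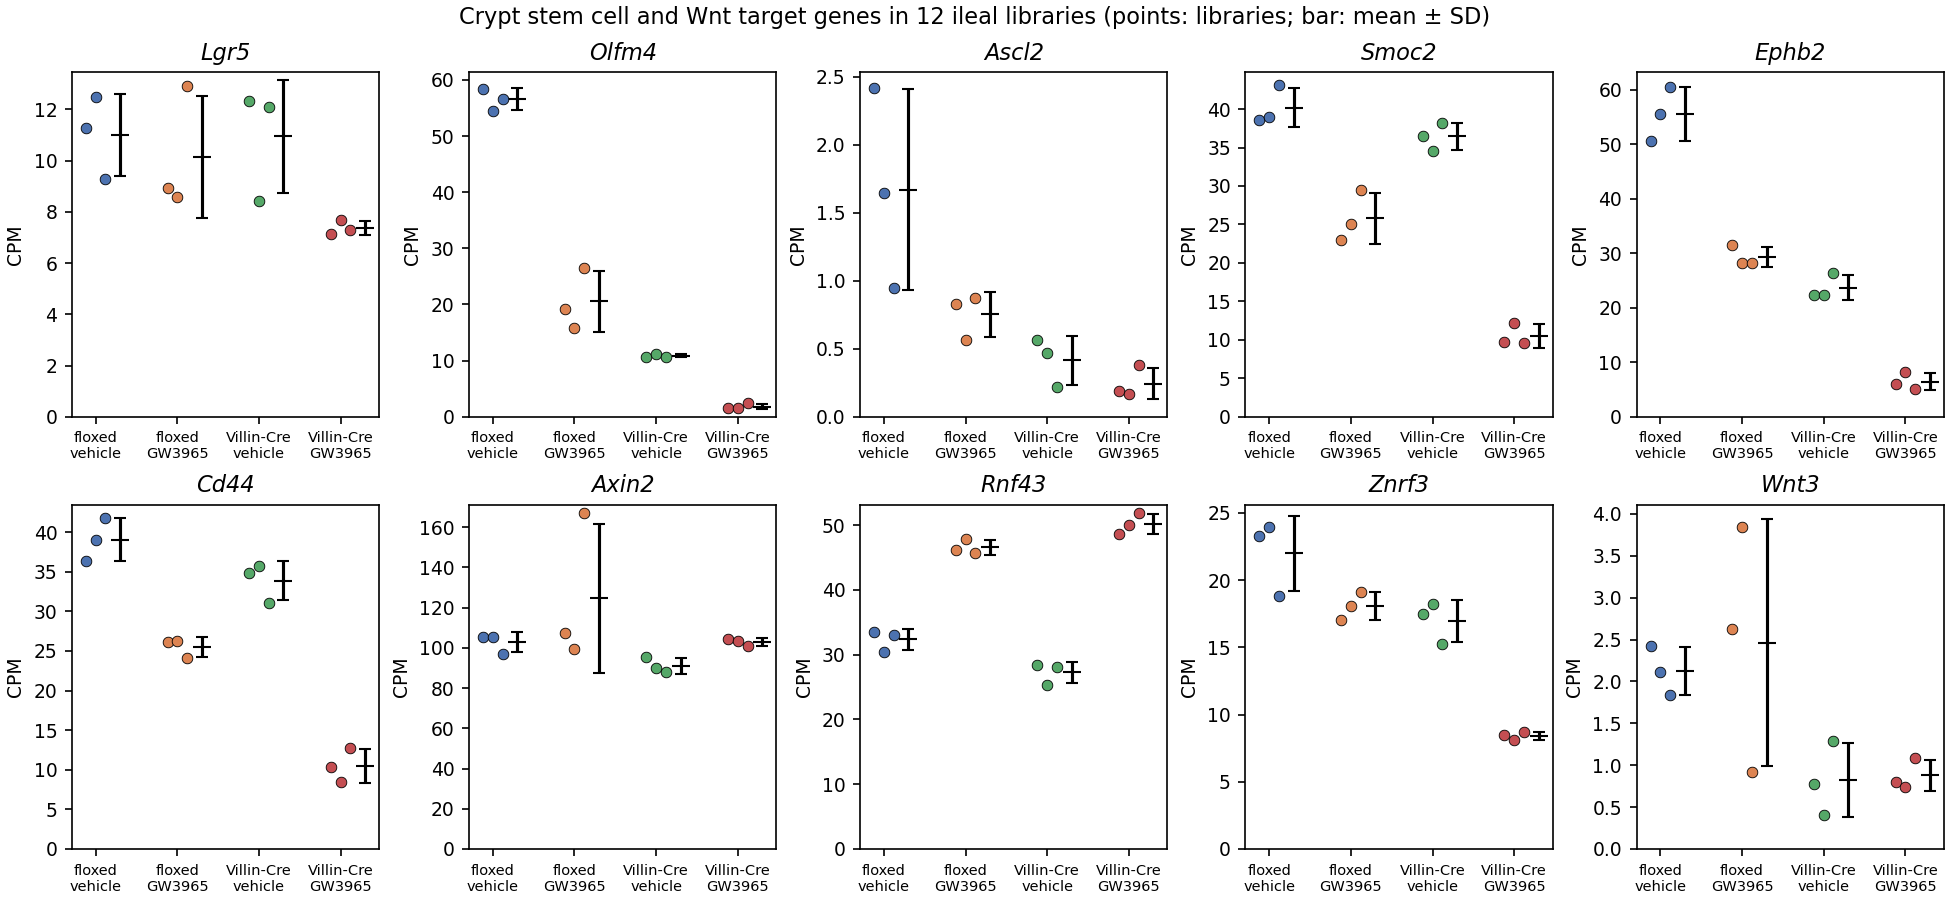
CPM of the 10 members in each of the 12 ileal libraries, 1 panel per gene on a linear axis from 0, with points for libraries and a bar for mean ± SD of 3. Olfm4 steps down from 56.5 to 20.5, 10.8 and 1.79 CPM over the 4 groups, while Rnf43 is higher in both GW3965 groups and Axin2 is high in a single floxed GW3965 library at 167 CPM.

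Among the stem cell genes, Olfm4 was the member with the widest span. Its level was 58.5, 54.5 and 56.6 CPM in the floxed vehicle libraries and 19.2, 15.9 and 26.5 CPM with GW3965. In Villin-Cre libraries it was 10.6, 11.2 and 10.7 CPM with vehicle and 1.51, 1.49 and 2.37 CPM with GW3965. No group overlapped another, and the step from the highest to the lowest group was from 56.5 ± 1.97 to 1.79 ± 0.503 CPM (SD, n = 3). With GW3965, Olfm4 fell by 1.47 ± 0.16 in floxed mice (adjusted p 2.42e-06) and by 2.33 ± 0.16 in Villin-Cre mice (adjusted p 3.31e-09). Against floxed mice, Villin-Cre mice had less Olfm4 by 2.33 on the log2 scale with vehicle (log2 fold change -2.33 ± 0.16, adjusted p 1.68e-08) and by more with GW3965 (-3.19 ± 0.16, adjusted p 1.88e-10). Olfm4 (ENSMUSG00000022026, chromosome 14, 79984081 to 80023139, plus strand, GRCm38) shares 153 exon bases with the lincRNA Gm6999 on the same strand, which had 1 read in all 12 libraries.

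Lgr5, the R-spondin receptor that defines the dividing stem cell, moved far less. Its libraries held 11.3, 12.5 and 9.30 CPM in the floxed vehicle group, 8.95, 8.60 and 12.9 CPM in the floxed GW3965 group, 12.3, 8.41 and 12.1 CPM in the Villin-Cre vehicle group and 7.13, 7.68 and 7.30 CPM in the Villin-Cre GW3965 group. The first 3 groups overlapped, and the Villin-Cre GW3965 libraries lay below every other library. Lgr5 fell with GW3965 in Villin-Cre mice by 0.52 ± 0.17 (adjusted p 0.0166). This call was lost without Villin-Cre vehicle replicate 1 (adjusted p 0.0786) or replicate 3 (0.0727) and with libraries rescaled by the median of gene ratios (0.0530). In floxed mice its difference was -0.13 ± 0.17 (adjusted p 0.615), and between genotypes it was -0.02 ± 0.17 with vehicle (adjusted p 0.950) and -0.41 ± 0.17 with GW3965 (adjusted p 0.0521). The last was called without floxed GW3965 replicate 1 (-0.49) or 2 (-0.52), without Villin-Cre vehicle replicate 2 (adjusted p 0.0344) and with Gm26917, the gene with the most reads, left out of the library totals (0.0333). Lgr5 (ENSMUSG00000020140) spans bases 115450311 to 115587780 of chromosome 10 (minus strand).

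Smoc2, a secreted matrix protein of the crypt base that is also made by stromal cells, responded to GW3965 rather than to genotype alone. Its libraries held 38.5, 39.0 and 43.1 CPM in floxed vehicle and 23.0, 25.0 and 29.5 CPM in floxed GW3965 mice. Villin-Cre mice stood at 36.5, 34.6 and 38.2 CPM with vehicle and at 9.73, 12.2 and 9.52 CPM with GW3965. Each vehicle group lay wholly above the GW3965 group of its genotype, and Villin-Cre GW3965 libraries were the lowest of all. Smoc2 fell with GW3965 by 0.63 ± 0.11 in floxed (adjusted p 0.000176) and by 1.76 ± 0.11 in Villin-Cre mice (adjusted p 5.23e-10). The genotypes differed by -0.14 ± 0.11 with vehicle (adjusted p 0.324) and by -1.26 ± 0.11 with GW3965 (adjusted p 5.32e-08). Smoc2 (ENSMUSG00000023886) spans bases 14279506 to 14404790 of chromosome 17 (plus strand).

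Ascl2, a transcription factor that sets the stem cell programme together with Wnt input, was scarce. It had 18 to 49 reads in the floxed vehicle libraries, 10 to 20 in floxed GW3965, 4 to 11 in Villin-Cre vehicle and 4 to 8 in Villin-Cre GW3965 libraries. Its level was 2.42, 1.65 and 0.946 CPM in floxed vehicle mice and 0.827, 0.566 and 0.872 CPM with GW3965. With vehicle, Villin-Cre mice had 0.565, 0.467 and 0.215 CPM, all below the floxed range, and the difference was called (-1.21 ± 0.28, adjusted p 0.00218). With GW3965 they had 0.189, 0.165 and 0.379 CPM (-0.76 ± 0.28 against floxed, adjusted p 0.0297). This call was lost without floxed GW3965 replicate 1 or 3 or Villin-Cre GW3965 replicate 1 or 2 (adjusted p 0.0650 to 0.0923), under the median of gene ratios (0.0635), the pan-epithelial scaling (0.0614) and a pseudocount of 2 (0.0681). The floxed response to GW3965 (-0.74 ± 0.28, adjusted p 0.0457) rested on few reads: it was -0.50 without floxed vehicle replicate 1 and was lost in 9 of 12 fits that left out a library, all but those without replicate 3 of floxed vehicle, floxed GW3965 or Villin-Cre vehicle mice. It was also lost under the median of gene ratios (adjusted p 0.0746), without the filter (0.0735), on the log2 values as deposited (0.149), under voom (0.0723) and with only the compared groups fitted (0.0871). In Villin-Cre mice the response was -0.29 ± 0.28 (adjusted p 0.397). Ascl2 (ENSMUSG00000009248) spans bases 142966829 to 142969264 of chromosome 7 (minus strand).

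Both receptors were among the members that fell with GW3965. Ephb2, the receptor tyrosine kinase whose gradient keeps crypt cells in their place and which is a direct Wnt target, held 50.5, 55.5 and 60.4 CPM in floxed vehicle and 31.5, 28.2 and 28.2 CPM in floxed GW3965 libraries. Villin-Cre libraries held 22.4, 22.3 and 26.4 CPM with vehicle and 5.95, 8.21 and 5.12 CPM with GW3965. No group overlapped another, as for Olfm4. Ephb2 fell with GW3965 by 0.91 ± 0.13 in floxed (adjusted p 4.05e-05) and by 1.82 ± 0.13 in Villin-Cre mice (adjusted p 4.31e-09). It was lower in Villin-Cre than in floxed mice with vehicle (-1.21 ± 0.13, adjusted p 1.96e-06) and with GW3965 (-2.13 ± 0.13, adjusted p 1.42e-09). Ephb2 (ENSMUSG00000028664) spans bases 136647539 to 136835988 of chromosome 4 (minus strand).

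Cd44, a hyaluronan receptor of crypt cells and of many immune and stromal cells, had a pattern like that of Smoc2. Floxed libraries held 36.3, 39.0 and 41.8 CPM with vehicle and 26.1, 26.2 and 24.0 CPM with GW3965, and Villin-Cre libraries held 34.8, 35.8 and 31.1 CPM and 10.3, 8.50 and 12.8 CPM. The Villin-Cre GW3965 libraries lay far below all others, and no group overlapped another. Cd44 fell with GW3965 by 0.61 ± 0.12 in floxed (adjusted p 0.000567) and by 1.66 ± 0.12 in Villin-Cre mice (adjusted p 2.87e-09). The genotypes differed by -0.20 ± 0.12 with vehicle (adjusted p 0.178) and by -1.25 ± 0.12 with GW3965 (adjusted p 1.44e-07). The first was called by limma with only the compared groups fitted (adjusted p 0.0441). Cd44 (ENSMUSG00000005087) spans bases 102811141 to 102901665 of chromosome 2 (minus strand).

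Wnt3, the ligand of Paneth cells, had 35 to 49 reads per floxed vehicle library and 7 to 24 per Villin-Cre vehicle library. Its level was 2.42, 2.12 and 1.84 CPM in floxed vehicle, 0.771, 0.409 and 1.29 CPM in Villin-Cre vehicle and 0.803, 0.743 and 1.09 CPM in Villin-Cre GW3965 libraries. The floxed GW3965 libraries spread from 0.915 CPM in replicate 3 to 2.63 and 3.85 CPM in the others, so this group overlapped each of the rest. Wnt3 was lower in Villin-Cre mice with vehicle (-1.04 ± 0.34, adjusted p 0.0225) and with GW3965 (-0.97 ± 0.34, adjusted p 0.0252). The first was lost without floxed vehicle or Villin-Cre vehicle replicate 1 or 2, down to -0.79 without Villin-Cre vehicle replicate 2, and the second without floxed GW3965 or Villin-Cre GW3965 replicate 1 or 2, down to -0.62 without floxed GW3965 replicate 2. Under voom on recovered reads the adjusted p was 0.0649 and 0.0705, and both calls were also lost under the median of gene ratios (0.0580 and 0.0669), the pan-epithelial scaling (0.0558 and 0.0634) and without the filter (0.0638 and 0.0679). The second was lost too with only the compared groups fitted (0.0579). Wnt3 did not pass the test for GW3965 in either genotype (0.04 ± 0.34 in floxed, 0.10 ± 0.34 in Villin-Cre mice). Wnt3 (ENSMUSG00000000125) spans bases 103774150 to 103817957 of chromosome 11 (plus strand).

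The feedback inhibitors went separate ways. Rnf43, the ligase that clears Frizzled receptors from the membrane, was the only member called higher with GW3965 in the fit of all 12 libraries. It stood at 33.5, 30.5 and 33.1 CPM in floxed vehicle and 46.1, 47.9 and 45.7 CPM in floxed GW3965 libraries. In Villin-Cre libraries it stood at 28.4, 25.4 and 28.0 CPM with vehicle and at 48.6, 50.0 and 51.8 CPM with GW3965. Every GW3965 library lay above every vehicle library, and the rise was 0.52 ± 0.07 in floxed (adjusted p 1.98e-05) and 0.87 ± 0.07 in Villin-Cre mice (adjusted p 1.79e-08). Between genotypes the direction depended on scaling: with vehicle the difference was -0.24 ± 0.07 (adjusted p 0.0107), but 0.0009 with libraries rescaled by the median of gene ratios and -0.05 with libraries scaled to pan-epithelial genes, and it was lost without Villin-Cre vehicle replicate 2 (adjusted p 0.0578). With GW3965 it was 0.11 ± 0.07 (adjusted p 0.221), and 0.39 and 0.32 under the same scalings, both called. Rnf43 (ENSMUSG00000034177) spans bases 87662722 to 87735539 of chromosome 11 (plus strand).

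Znrf3, the close relative of Rnf43 with the same known role, moved the opposite way. Its libraries held 23.3, 23.9 and 18.8 CPM in floxed vehicle, 17.0, 18.1 and 19.1 CPM in floxed GW3965, 17.5, 18.2 and 15.2 CPM in Villin-Cre vehicle and 8.45, 8.09 and 8.67 CPM in Villin-Cre GW3965 mice. The Villin-Cre GW3965 libraries lay far below all others, and the floxed groups overlapped. Znrf3 fell with GW3965 by 0.97 ± 0.11 in Villin-Cre mice (adjusted p 1.05e-06), and was -0.27 ± 0.11 in floxed mice (adjusted p 0.0667), which was called without floxed GW3965 replicate 3 (-0.31) or floxed vehicle replicate 3 (-0.38) and with Gm26917 left out of the totals (-0.33). It was lower in Villin-Cre mice with GW3965 (-1.06 ± 0.11, adjusted p 5.49e-07). With vehicle its difference of -0.36 ± 0.11 (adjusted p 0.0146) shrank to -0.12 and -0.17, not called, under the median of gene ratios and the pan-epithelial scaling, and was not called without floxed vehicle replicate 1 (-0.32) or 2 (-0.30) or Villin-Cre vehicle replicate 3 (-0.29). Znrf3 (ENSMUSG00000041961) spans bases 5276324 to 5444847 of chromosome 11 (minus strand).

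Axin2, a scaffold of the beta-catenin destruction complex and a standard readout of Wnt signalling, did not pass the test in any comparison in the fit of all 12 libraries. It stood at 106, 106 and 97.0 CPM in floxed vehicle, 95.5, 90.1 and 87.8 CPM in Villin-Cre vehicle and 105, 104 and 101 CPM in Villin-Cre GW3965 libraries. In floxed GW3965 libraries it was 107 and 99.5 CPM, and 167 CPM in replicate 3, the library apart. The GW3965 difference was 0.24 ± 0.13 in floxed (adjusted p 0.158) and 0.17 ± 0.13 in Villin-Cre mice (adjusted p 0.266), and the genotypes differed by -0.17 ± 0.13 with vehicle (adjusted p 0.309) and -0.24 ± 0.13 with GW3965 (adjusted p 0.129). The Villin-Cre vehicle libraries lay below all floxed vehicle and all Villin-Cre GW3965 libraries. Without replicate 3 of floxed GW3965 the spread of Axin2 was smaller, and the rise in Villin-Cre mice (0.17, adjusted p 0.00522) and the lower level of Villin-Cre mice with vehicle (-0.17, adjusted p 0.00783) were called. Both were also called by limma with only the compared groups fitted (adjusted p 0.00365 and 0.0187). Without replicate 2 of floxed GW3965, the floxed rise was 0.38 and the genotype difference with GW3965 was -0.38, both called. Axin2 (ENSMUSG00000000142, chromosome 11, 108920349 to 108950783, plus strand) shares 209 exon bases with the antisense gene Gm11670, which had 0.495 to 2.22 CPM. The strand setting of the counting is not given in the sources at hand, so reads of that overlap cannot be assigned to a strand. The other 8 members share no exon base with another annotated gene.

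**Figure D2:**
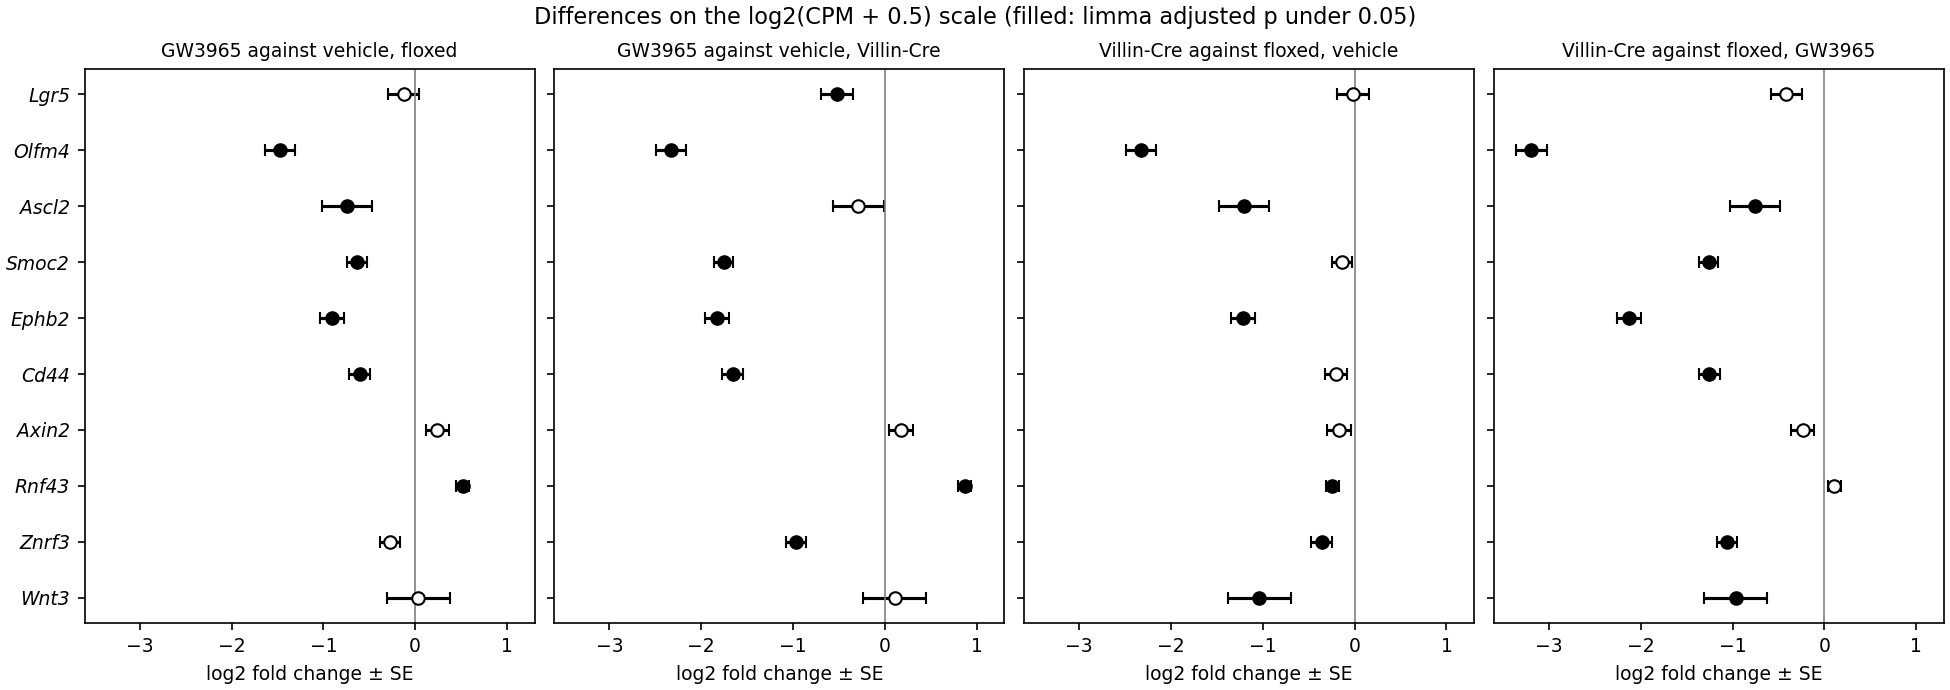
Log2 fold change ± SE of each member in 4 comparisons (x axis, shared scale; filled points passed the limma threshold). Olfm4 and Ephb2 lie left of 0 in every panel, Rnf43 lies right of 0 in both GW3965 panels, and Axin2 is unfilled throughout.

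Read by comparison, 5 to 7 of the 10 members were called lower and at most 1 higher in the fit of all 12 libraries. With GW3965 in floxed mice 5 of 10 members fell (Olfm4, Ascl2, Smoc2, Ephb2, Cd44) and 1 rose (Rnf43), where 20.9% of all tested genes were lower and 14.7% higher. The members' median log2 fold change was -0.44 and that of all genes was -0.08. In Villin-Cre mice 6 fell with GW3965 (Lgr5, Olfm4, Smoc2, Ephb2, Znrf3, Cd44) and Rnf43 rose, against 31.1% of genes lower and 21.5% higher, with a median of -0.75 for the members and -0.11 for all genes. Both comparisons have vehicle and GW3965 groups of their own, and the members named in both are Olfm4, Smoc2, Ephb2, Cd44 and Rnf43.

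With vehicle, 6 members were lower in Villin-Cre than in floxed mice (Olfm4, Ascl2, Ephb2, Rnf43, Znrf3, Wnt3) and 0 were higher by limma, against 30.7% of genes lower and 9.61% higher. At an unadjusted p under 0.05 no member was higher either, and voom gave 5 lower and 0 higher. The members' median was -0.30 and that of all genes -0.18. Scaling changed these counts. The median of gene ratios moved the median of all genes by 0.22 and the share of higher genes among those called from 23.8 to 58.1%, the pan-epithelial scaling moved them by 0.17 and to 51.6%, and either left 3 members called lower: Olfm4, Ascl2 and Ephb2. With GW3965, 7 members were lower in Villin-Cre mice (all but Lgr5, Axin2 and Rnf43) and 0 were higher by limma, at an unadjusted p under 0.05 or by voom, where 38.3% of genes were lower and 13.6% higher, and the medians were -1.01 for the members and -0.24 for all genes. Here the 2 scalings moved all genes by 0.24 and 0.19 and the share of higher genes from 26.1 to 52.3 and 46.4%, with 5 members lower and Rnf43 higher, as Ascl2 and Wnt3 were no longer called. In the GW3965 comparisons the median of gene ratios moved that share from 41.2 to 53.5% in floxed mice. Leaving Gm26917 out of the totals moved the median of all genes by -0.10 and that share from 40.9 to 30.9% in Villin-Cre mice. Over the 4 comparisons in their order above, averaging close libraries, which leaves 5 units and 1 residual degree of freedom, left 0, 5, 0 and 5 members called by limma, and 5, 6, 3 and 5 at an unadjusted p under 0.05. Of all tested genes, 1.03, 7.83, 0.113 and 6.60% were called under that setting. The floxed GW3965 group held 2 units there and each other group 1, so the only spread was between replicate 3 of floxed GW3965 and its group. Counts under that setting therefore cannot show whether a difference exceeds the spread within the Villin-Cre groups.

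The response to GW3965 itself differed between the genotypes for 6 members, by the interaction term. It was more negative in Villin-Cre mice for Smoc2 (-1.12 ± 0.15, adjusted p 2.32e-05), Cd44 (-1.05 ± 0.16, adjusted p 9.96e-05), Ephb2 (-0.92 ± 0.19, adjusted p 0.00109), Olfm4 (-0.86 ± 0.23, adjusted p 0.009) and Znrf3 (-0.70 ± 0.15, adjusted p 0.00221), and more positive for Rnf43 (0.35 ± 0.10, adjusted p 0.0123). Of all genes, 18.4% were called with a negative and 14.6% with a positive interaction. The Olfm4 interaction was lost with a pseudocount of 2 (-0.36, adjusted p 0.175). For Lgr5, Ascl2, Axin2 and Wnt3 the term was between -0.40 and 0.45 and did not pass the test. Averaging close libraries left 0 of 10 interactions called by limma and 3 at an unadjusted p under 0.05.

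Ratios within a library do not depend on its scaling. The Olfm4 to Lgr5 ratio of CPM was 5.19, 4.37 and 6.09 in floxed vehicle libraries and 2.14, 1.85 and 2.06 in floxed GW3965 libraries. It was 0.863, 1.33 and 0.884 in Villin-Cre vehicle and 0.212, 0.194 and 0.325 in Villin-Cre GW3965 libraries, so the 4 groups stood apart with no overlap. The Rnf43 to Znrf3 ratio was 1.44, 1.27 and 1.76 in floxed vehicle and 1.62, 1.39 and 1.84 in Villin-Cre vehicle libraries, which overlapped. With GW3965 it was 2.71, 2.65 and 2.39 in floxed and 5.75, 6.18 and 5.98 in Villin-Cre mice. An exact test over 3 against 3 libraries cannot reach below 0.1, so no test was made of single ratios. Over the 12 libraries the log2 levels of Olfm4 and Ephb2 had a Pearson r of 0.97, those of Smoc2 and Cd44 0.95, and those of Rnf43 and Smoc2 -0.80. These values describe libraries that share 4 groups, depth and composition.

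**Figure D3:**
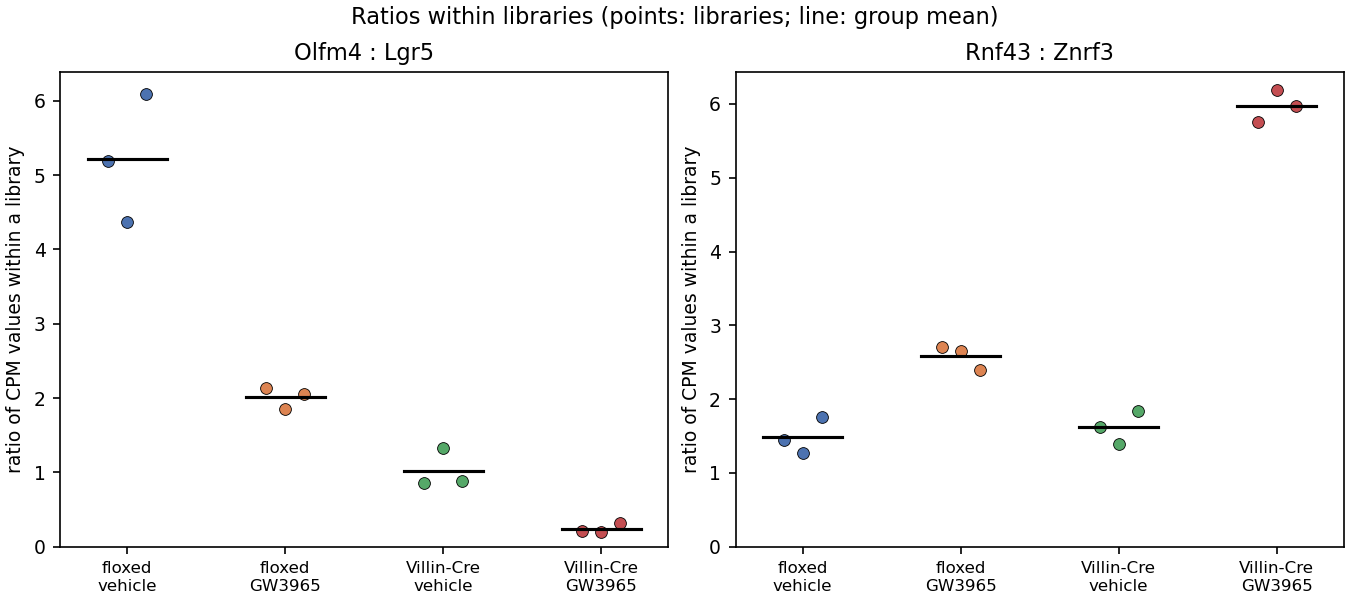
Ratios of CPM values within each library, Olfm4 to Lgr5 on the left and Rnf43 to Znrf3 on the right (points are libraries, lines are means of 3). The first falls from a mean of 5.22 in floxed vehicle to 0.243 in Villin-Cre GW3965 mice, and the second rises from 1.49 to 5.97.

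Other genes of the crypt base were mostly lower too, with a few exceptions. Their list was chosen with earlier results of these data known, so it is no independent support. Of 16 further stem cell genes, 11 were lower and 2 higher with GW3965 in floxed mice, and 14 were lower and 1 higher in Villin-Cre mice. Villin-Cre mice had 10 of them lower and 1 higher with vehicle and 15 lower and 1 higher with GW3965. Of all genes, 20.9% were lower and 14.7% higher with GW3965 in floxed mice, and 31.1% and 21.5% in Villin-Cre mice. Between genotypes, 30.7% of all genes were lower and 9.61% higher with vehicle, and 38.3% and 13.6% with GW3965. The median log2 fold changes of the 16 genes were -0.40, -1.08, -0.57 and -1.08 in that order, beside -0.08, -0.11, -0.18 and -0.24 for all tested genes. Clca3b, named with the crypt base genes here, stood at 142 ± 7.09, 73.9 ± 8.19, 48.6 ± 2.76 and 6.21 ± 0.660 CPM in floxed vehicle, floxed GW3965, Villin-Cre vehicle and Villin-Cre GW3965 mice (SD, n = 3). Lrig1, a brake on ErbB receptors in stem cells, and Prom1, a membrane glycoprotein of crypt cells, fell with GW3965 by 0.45 and 0.39 in floxed and by 1.43 and 1.22 in Villin-Cre mice. The exception that rose in both genotypes was Rnf32, at 4.71 ± 0.0327 and 10.7 ± 0.401 CPM in floxed and 3.37 ± 0.945 and 19.8 ± 1.66 CPM in Villin-Cre mice.

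Wnt target genes outside the member list were called in both directions. Of 11 tested from a list of 14, 5 were lower and 2 higher with GW3965 in floxed mice and 6 were lower and 1 higher in Villin-Cre mice, with medians of -0.01 and -0.71. Of all genes, 20.9% were lower and 14.7% higher in floxed mice, and 31.1% and 21.5% in Villin-Cre mice. Ccnd1, which drives entry into S phase, was the steepest at 215 ± 1.42 and 46.8 ± 12.4 CPM in floxed and 72.4 ± 0.469 and 9.74 ± 0.731 CPM in Villin-Cre mice without and with GW3965. Myc, the growth factor-responsive transcription factor, stood at 25.8, 18.4, 8.34 and 3.31 CPM in the 4 groups in the order above. The feedback inhibitors Nkd1 and Nkd2, which bind Dishevelled, fell by 2.32 and 1.75 with GW3965 in Villin-Cre mice. Sp5, a direct target and the gene of this list that rose in both genotypes, was outside the rule for naming and was chosen after its values were seen: it stood at 3.27 ± 0.512 and 5.32 ± 1.70 CPM in floxed and 2.94 ± 0.906 and 9.71 ± 0.630 CPM in Villin-Cre mice. Between genotypes, 3 targets were lower and 0 higher with vehicle by limma (1 at an unadjusted p under 0.05 and 1 by voom), and 9 were lower and 1 higher with GW3965. The shares of all genes were 30.7% lower and 9.61% higher with vehicle, and 38.3% and 13.6% with GW3965.

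The ligands held the most one-sided value of the pathway. Wnt3a, a canonical Wnt ligand, had 220, 224 and 234 reads in the Villin-Cre GW3965 libraries, which is 10.4, 9.24 and 11.1 CPM, and 0 to 2 reads in each of the 9 other libraries. Wnt3 itself was lower in that group than in floxed GW3965 mice on average, as given above. Of 12 tested genes for ligands and their secretion, 2 rose and 6 fell with GW3965 in Villin-Cre mice, where 21.5% of all genes were higher and 31.1% lower. The cargo receptor Wls, needed for Wnt release, stood at 22.9, 24.5, 23.8 and 9.74 CPM, with the low value in Villin-Cre GW3965 mice only. Both tested R-spondins were higher in Villin-Cre than in floxed mice with vehicle and lower with GW3965: Rspo1 stood at 1.12, 1.70, 2.32 and 0.558 CPM and Rspo3 at 2.47, 2.21, 4.01 and 0.855 CPM in the 4 groups, from 5 to 45 and 14 to 86 reads per library. Between genotypes, 9.61% of all genes were higher and 30.7% lower with vehicle, and 13.6% and 38.3% with GW3965.

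Receptors were called in both directions. Of 17 tested, 3 were higher and 5 lower with GW3965 in floxed mice, 5 higher and 6 lower in Villin-Cre mice, and 1 higher and 12 lower between genotypes with GW3965. The counts for GW3965 lie near the shares of all genes, which were 14.7% higher and 20.9% lower in floxed and 21.5% higher and 31.1% lower in Villin-Cre mice. Between genotypes with GW3965, 13.6% of all genes were higher and 38.3% lower. Fzd5, the Frizzled of Paneth cells and the epithelium, stood at 386, 360, 207 and 249 CPM, and Lgr4, the widely expressed relative of Lgr5, at 310, 250, 191 and 203 CPM. Ror2, a receptor of non-canonical ligands found in stroma, fell by 2.41 with GW3965 in Villin-Cre mice. The secreted inhibitors had 7 of 9 tested genes lower and 0 higher in that comparison by limma, at an unadjusted p under 0.05 or by voom, led by Dkk3 (30.5 to 8.53 CPM) and Sfrp1 (20.9 to 6.34 CPM). Of 20 beta-catenin transducers, 7 were higher and 6 lower there. Ctnnb1, which encodes beta-catenin, rose in both genotypes, by 0.39 in floxed and 0.34 in Villin-Cre mice. Tle3, a co-repressor of TCF factors, rose by 1.01 and 0.62.

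**Figure D4:**
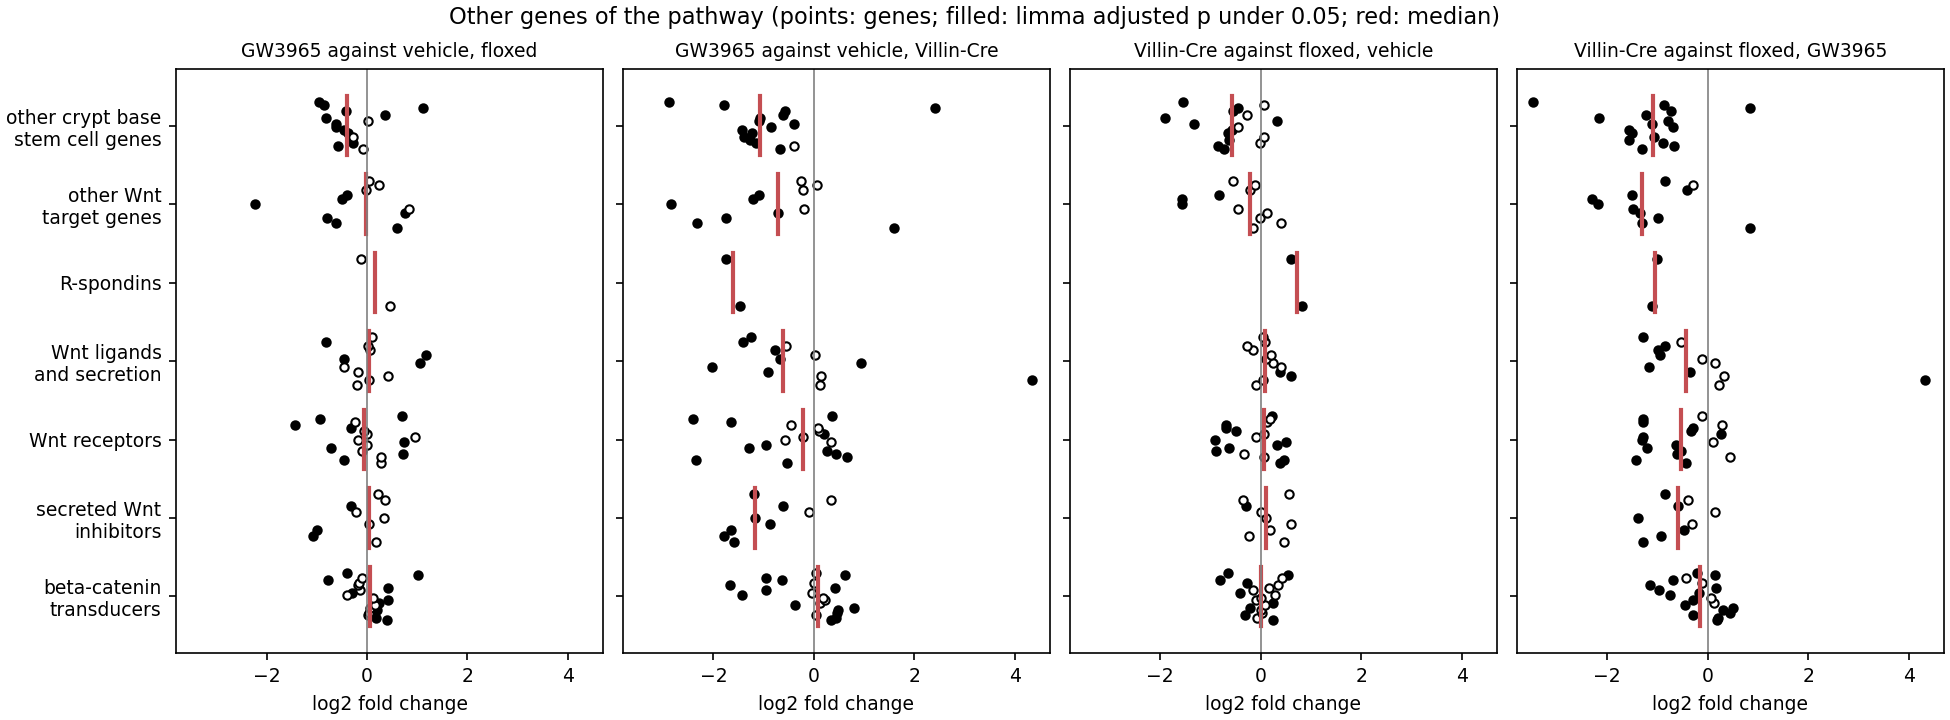
Log2 fold change of the tested genes of 7 lists in 4 comparisons (points are genes, filled where called by limma, red lines are list medians). The crypt base list lies mainly left of 0 in every panel, and the ligand list has a single point near 4.3, Wnt3a, in both panels that contrast the Villin-Cre GW3965 group.

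Notch genes, which hold stem cells back from secretory fates, were called in both directions: 6 of 8 tested were lower and 2 higher with GW3965 in floxed mice, and 5 were lower and 1 higher in Villin-Cre mice. The shares of all genes in both comparisons are given with the BMP genes below. With libraries rescaled by the median of gene ratios, 5 of the 8 Notch genes were called in floxed mice. Hes1, the main Notch target of the crypt, stood at 23.3, 15.3, 10.7 and 5.44 CPM in the 4 groups. Atoh1, which Hes1 represses and which commits cells to the secretory lineage, rose by 0.82 in floxed mice and was -0.14 in Villin-Cre mice, not called. Of 16 BMP pathway genes, 5 were lower and 4 higher in floxed and 9 lower and 3 higher in Villin-Cre mice with GW3965, where 20.9% and 14.7% of all genes were lower and higher in floxed and 31.1% and 21.5% in Villin-Cre mice. Grem1, a BMP antagonist made beneath the crypt, stood at 87.3, 53.3, 102 and 18.5 CPM. Of 16 cell cycle genes, 15 were lower and 0 higher with GW3965 in floxed mice by limma, at an unadjusted p under 0.05 or by voom, 13 lower and 1 higher (Pcna) in Villin-Cre mice, and all 16 were lower in Villin-Cre mice with vehicle. Of all genes, 30.7% were lower and 9.61% higher between genotypes with vehicle. Mki67, the marker of dividing cells, stood at 191, 84.2, 53.2 and 14.7 CPM. Reserve and regeneration genes had no common direction: of 11 tested, 2 were higher and 4 lower with GW3965 in floxed mice, where 14.7% of all genes were higher and 20.9% lower. Clu, which marks cells that rebuild a damaged crypt, held 11.7 ± 2.59 CPM in floxed vehicle mice. With GW3965 it held 90.9 ± 70.9 CPM in floxed mice, where the lowest library was at 9.02 CPM and the highest at 133 CPM. With close libraries averaged, the 16 further stem cell genes had 0, 7, 0 and 8 calls in the 4 comparisons, the 11 Wnt targets 1, 3, 0 and 5, and the 16 cell cycle genes 1, 6, 0 and 11.

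Markers of several other cell types in the tissue differed between the same groups. Of all genes, 20.9% were lower and 14.7% higher with GW3965 in floxed mice, and 31.1% and 21.5% in Villin-Cre mice. Between genotypes with GW3965, 38.3% of all genes were lower and 13.6% higher. The summed level of 10 smooth muscle genes was 7646 to 7655 CPM in floxed vehicle, 3173 to 4748 in floxed GW3965, 8212 to 8473 in Villin-Cre vehicle and 1311 to 1334 in Villin-Cre GW3965 libraries, and all 10 were lower with GW3965 in either genotype. That of 10 fibroblast and telocyte genes was 971 to 1003, 490 to 815, 1368 to 1457 and 469 to 494 CPM, with 8 and 9 of 10 lower. Smoc2 and Cd44, which such cells also make, were lowest in Villin-Cre GW3965 libraries. The fibroblast sums of the 2 GW3965 groups overlapped, and their largest terms were Col3a1, Col1a2 and Col1a1. Between genotypes with GW3965, 4 of the 10 fibroblast and telocyte genes were lower and 6 were not called, with a median of -0.24. The 4 lower genes were Lum (-2.02), Dcn (-1.87), Cd34 (-0.57) and Pdgfra (-0.38). Smoc2 and Cd44 differed there by -1.26 and -1.25, and the 10 smooth muscle genes by -0.85 (Mylk) to -1.99 (Cnn1). Sums of 9 Paneth cell genes were 427 to 449, 191 to 994, 152 to 161 and 90.8 to 98.0 CPM, so that Villin-Cre groups lay below floxed vehicle mice. With GW3965 in Villin-Cre mice, 5 of the 9 were lower and 1 was higher, Pnliprp2 (1.64 ± 0.25, limma adjusted p 2.87e-05). Macrophage genes, of cells that also make Cd44, summed to 334 to 346, 169.8 to 215, 250.3 to 256 and 158 to 162 CPM, and 9 of 10 were lower with GW3965 in either genotype. Between genotypes with GW3965, 2 of the 10 macrophage genes were higher, 2 were lower and 6 were not called. Genes of T and NK cells summed to 55.6 to 59.7, 72.7 to 82.6, 132 to 144.5 and 42.6 to 50.2 CPM, with 9 of 10 lower with GW3965 in Villin-Cre mice and 10 of 10 lower between genotypes with GW3965. Enterocyte markers went the other way: 10 of 12 rose with GW3965 in floxed and 12 of 12 in Villin-Cre mice, from 11810 to 12000 CPM summed in floxed vehicle to 39240 to 39990 CPM in Villin-Cre GW3965 mice. The sum of 10 pan-epithelial genes was 8565 to 8640, 8490 to 9351, 8471 to 8928 and 9875 to 10000.0 CPM. Single genes of this list changed in both directions, with 4 higher and 5 lower with GW3965 in Villin-Cre mice. From floxed vehicle to Villin-Cre GW3965 mice, Epcam went from 887.5 to 1826 CPM and Krt19 from 1402 to 496 CPM. No marker of any of these lists was at 0 in any group. The part of these cells in the changes of the members was not tested. The share of reads on Gm26917 was 10.4 to 11.6%, 6.57 to 7.92%, 11.5 to 12.2% and 3.92 to 4.20% in the 4 groups. With that gene out of the totals, 7, 7, 6 and 8 members were called in the 4 comparisons, against 6, 7, 6 and 7 with it.

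**Figure D5:**
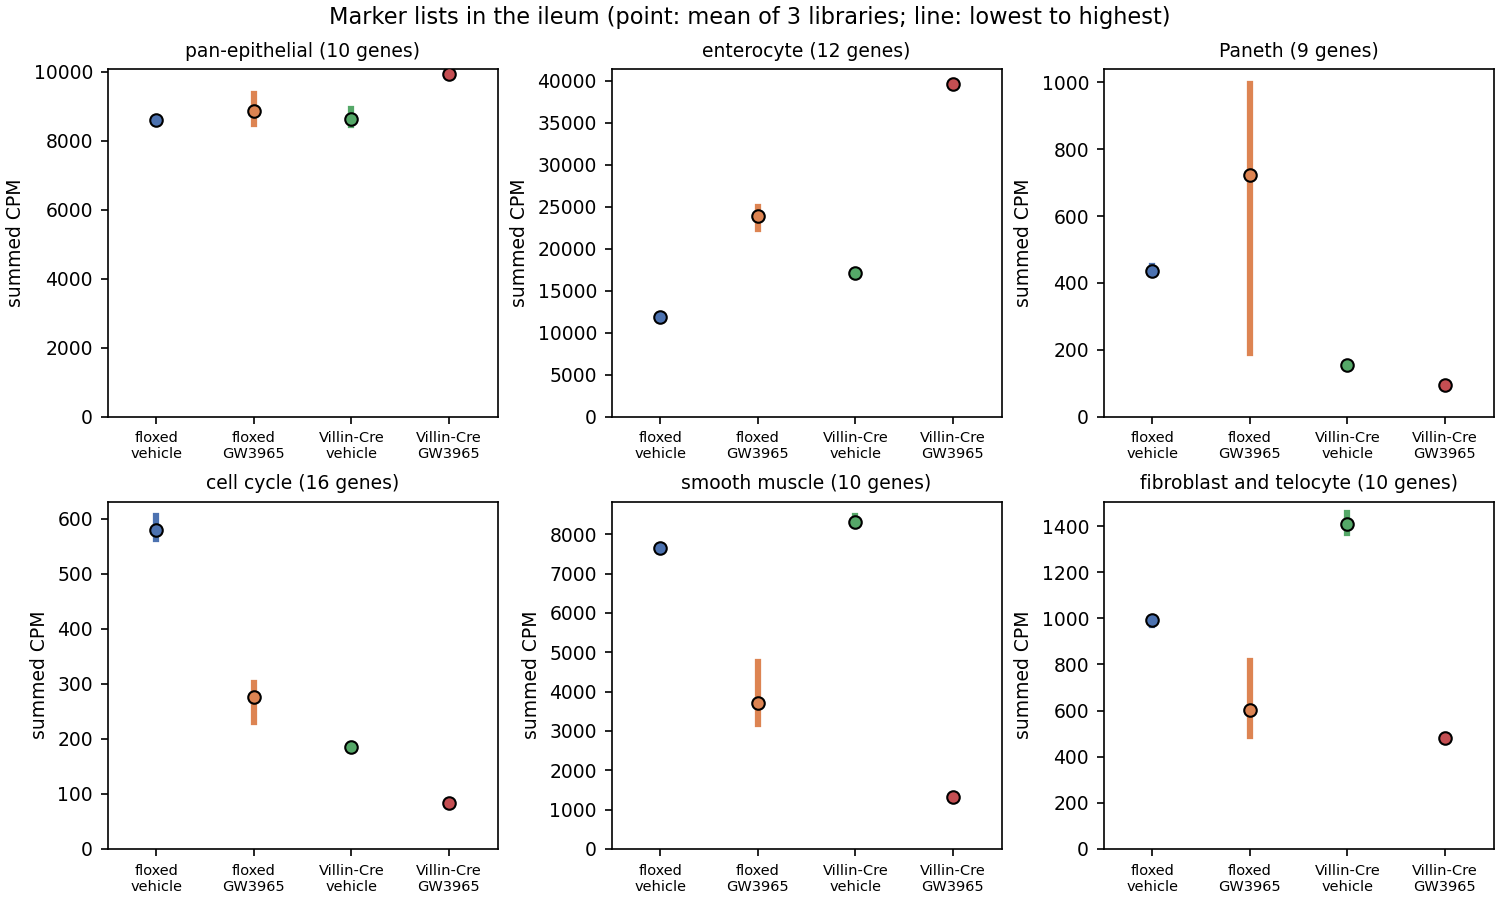
Summed CPM of 6 marker lists in the 4 ileal groups (point, mean of 3 libraries; line, lowest to highest). Smooth muscle genes sit between 1311 and 1334 CPM in Villin-Cre GW3965 libraries against 7646 to 7655 CPM in floxed vehicle libraries. The sum of pan-epithelial genes differs much less, though single genes of that list changed in both directions.

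The genes whose log2 levels were most like those of single members were found among 10402 tested genes over the 12 libraries, which share 4 groups and their composition. For Olfm4 they were Trap1, Rplp2, Adamts15 and Kif11, each with a Pearson r of 0.99. For Lgr5 they were Kif5a, Otud3, Oaz2 (each 0.90) and Cetn2 (0.89), and for Axin2 they were Maf1 (0.92), Chpt1 (0.91), Ano7 (0.88) and Ap1ar (0.85). Like Axin2, these last 4 genes had their largest SD in the floxed GW3965 group, where Axin2 was 167 CPM in replicate 3. The SD there was 9.49, 13.85, 12.55 and 8.81 CPM in that order. How far the Axin2 correlations rest on that library was not tested. None of the other 9 members was among the 4 genes most like Olfm4, Lgr5 or Axin2.

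In the 12 liver libraries of the same groups, whose table was deposited separately, the set divided by gene. Olfm4, Ascl2 and Wnt3 had 0 to 6 reads per library. Axin2 and Lgr5, which in the liver mark Wnt-responsive hepatocytes around the central vein, and Rnf43 and Znrf3 were detected in every library. Lgr5 stood at 14.1 ± 1.62, 14.1 ± 1.28, 11.1 ± 1.35 and 5.98 ± 0.790 CPM in floxed vehicle, floxed GW3965, Villin-Cre vehicle and Villin-Cre GW3965 livers (SD, n = 3), and the last group lay below the others as in the ileum. Rnf43 stood at 52.8 ± 1.01, 52.3 ± 8.73, 42.4 ± 1.98 and 30.5 ± 1.82 CPM, lowest in Villin-Cre GW3965 livers. Znrf3 stayed between 38.5 and 46.5 CPM in all libraries. Axin2 was 43.1 CPM in the floxed GW3965 replicate 1, which stood apart from its group in the liver, and 20.4 and 22.0 CPM in the others. Cd44 was 29.3 to 30.3 CPM in floxed vehicle and 86.8 to 89.0 CPM in Villin-Cre vehicle livers. These liver levels are descriptions without a test.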

How the data were processed

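The 24 libraries (12 of ileum, 12 of liver) were sequenced from RNA of whole tissue, 3 per group. The authors deposited log2 values per gene, 1 table per tissue. The tools were featureCounts 1.4.6-p5 of Subread, STAR 2.5.1a and bcl2fastq, with the build GRCm38, per the submitters' processing notes. Neither the annotation release nor the strand setting or log2 formula is given in the sources at hand. The lowest deposited log2 value was -5.62 in every library and was taken as 0 reads. Removing its antilog gave CPM, and all low values then stood at whole reads within 0.05 of a read. Ileal libraries then held 16.96 to 24.2 M reads, and those of liver 26.43 to 32.28 M. Between 66.7 and 70.4% of the low read numbers of ileum were even, so both mates of many fragments appear to be counted, and p-values of read-based tests rest on fewer fragments than reads. Repeats of an entry with the same values (276 entries) were dropped. Gene positions and exon lengths came from GENCODE M21, in which 99.7% of the ileal genes were found.

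Groups were compared on log2(CPM + 0.5) with limma 3.58.1 in R 4.3.3, in 1 fit of 4 group means over the 12 ileal libraries, with trended variance and Benjamini-Hochberg adjustment over 18656 genes that had 0.5 CPM in at least 3 libraries. A call is an adjusted p below 0.05. The fit was tested on simulated data. The liver was described without a test.

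The 10 members and all gene lists were chosen with earlier results of these data known. All members are given. From each list, up to 4 genes per comparison with the smallest p and at least 1 CPM in the higher group could be named, and for Olfm4, Lgr5 and Axin2 the 4 genes with the highest Pearson correlation among named genes of at least 5 CPM. Alternatives were other scalings (median of gene ratios, totals without Gm26917, pan-epithelial genes), no filter, the log2 values as deposited, a pseudocount of 2, voom on the recovered reads, only the compared groups, a block for the replicate number, each library left out, and close libraries averaged. For the counts of the pathway lists, the median of gene ratios, the pan-epithelial scaling, voom, close libraries averaged and a fit without floxed GW3965 replicate 3 were added after seeing the data. The lists of cell type markers had no alternatives. Libraries were called close where their variance was under 4 times the Poisson variance. Averaging them left 2 units in the floxed GW3965 group and 1 in each other group.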

Additional observations from a re-analysis of the deposited data

Results flagged for a closer look

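For 6 members the response to GW3965 differed between the genotypes by the interaction test, the reason they are listed here. As the Villin-Cre response minus the floxed response on the log2 scale, the difference was -1.12 for Smoc2, -1.05 for Cd44, -0.92 for Ephb2, -0.86 for Olfm4 and -0.70 for Znrf3, whose levels fell further in Villin-Cre mice. It was 0.35 for Rnf43, which rose further there. In the Villin-Cre response all 3 GW3965 libraries lay outside the vehicle range for each of the 6 genes. How many of all genes did so was not counted, and 31.1% of all genes were called lower and 21.5% higher in that comparison. As the 6 were picked by the interaction test, this separation adds no support. The 6 were called by limma over 18656 genes in each of the 12 fits that left out a library. With close libraries averaged 0 of them were called and 3 members had an unadjusted p under 0.05.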

How the results depend on the processing

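With each library left out in turn, the number of members called was 5 to 7 for GW3965 in floxed mice, 6 to 8 in Villin-Cre mice, 4 to 7 between genotypes with vehicle, 5 to 8 with GW3965, and 6 for the interaction. Averaging close libraries leaves 5 units, and then 0 members were called by limma for GW3965 in floxed mice, 0 between genotypes with vehicle and 0 for the interaction, with 5, 3 and 3 at an unadjusted p under 0.05. Over all genes that setting called 1.03, 0.113 and 0.075% in these comparisons. Rescaling by the median of gene ratios or to pan-epithelial genes left 3 members called between genotypes with vehicle under each, and the former turned Rnf43 there from -0.24 to 0.0009 (limma adjusted p 0.994). The cause was not tested. For the 11 pathway lists in 5 comparisons, 53 of 55 counts moved by over 1.5 times with close libraries averaged, 2 under the median of gene ratios, 1 under the pan-epithelial scaling, 2 under voom and 1 without floxed GW3965 replicate 3 (secreted inhibitors between genotypes with vehicle, from 1 to 2 called).

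Same-numbered libraries of different groups did not deviate together (r of -0.04 to 0.05 over 18 pairs, with 0 over 0.1). Fitting the replicate number as a replicate block gave 5, 7, 6, 7 and 6 members called in the 5 comparisons, and the one call it lost was Ascl2 with GW3965 in floxed mice (adjusted p 0.0503). Depth limits Ascl2 and Wnt3, with at most 49 reads in the floxed vehicle libraries.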
